A study of Mus musculus with 12 samples.

Results

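F-box protein genes were followed through fully grown mouse oocytes of 3 Marf1 genotypes. The members were all genes of the deposited table with a symbol of the Fbxw, Fbxl or Fbxo series, leaving out Fbxo5 and Fbxo43. There were 76 of them among 24254 genes, of which 22 carried an Fbxw symbol, 19 an Fbxl symbol and 35 an Fbxo symbol. Of these 76, 64 reached 1 FPKM (fragments per kilobase of transcript, normalized for library depth) in at least 1 library and were tested, a share of 84.2% against 53.5% of all genes. The groups were oocytes of a Marf1 mutant that the labels name D272Mut, of a Marf1 gene trap named GTMut, and of wild type (WT), with 4 libraries each and 12 in all. All came from C57BL/6 mice of 3 weeks injected 46 h before collection with 5 IU of PMSG, a hormone preparation that stimulates follicles. Each library held 80 oocytes at the germinal vesicle stage, the arrest before meiosis resumes. The labels do not say what the D272 change is, nor whether replicate libraries hold oocytes of separate mice, so a p-value speaks only of the spread among these libraries, which may be technical.

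F-box proteins are the substrate-choosing subunits of SCF ubiquitin ligases: the F-box binds SKP1, which ties the protein to the cullin CUL1 and the RING protein RBX1, and the rest of the protein holds the target. The families are named for that second part, with WD40 repeats in FBXW, leucine-rich repeats in FBXL and other or no known domains in FBXO. In oocytes, timed protein destruction by SCF ligases and by the anaphase-promoting complex steers arrest, meiotic resumption and the transition to the embryo. The mouse also carries a set of clustered Fbxw genes, and Fbxw15 among them has been described as selectively expressed in oocytes of the ovary.

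The targeted gene served as a check of the labels. Marf1 stood at 53.1 ± 1.02 FPKM in D272Mut, 1.43 ± 0.13 in GTMut and 25.8 ± 0.63 in WT (SD, n = 4 each) without overlap. Exact permutation of the libraries (two-sided) returned 0.0286 as the p of every pairing, which is as low as 4 against 4 can go. Libraries of a genotype correlated at 0.965 to 0.99 across genes on the log2(FPKM + 1) scale. Absolute depth is unknown from FPKM, and relative depth ran from 0.444 to 0.836 in D272Mut, 0.556 to 1 in GTMut and 0.613 to 0.944 in WT, with the deepest library set to 1. The 14 oocyte markers summed to 12150 to 12330 FPKM in D272Mut, 12640 to 13350 in GTMut and 14180 to 14260 in WT, led by Gdf9, Bmp15 and Zar1. By limma, 3 of the 14 were higher and 8 lower than WT in each mutant. Nobox and Sohlh1 were higher in both. Sohlh1 reached 1 FPKM only in mutant libraries, so its call is not independent of the filter at that level. The 12 granulosa and cumulus markers summed to 141.5 to 144 FPKM in D272Mut, 147.2 to 161.6 in GTMut and 44.7 to 49.5 in WT. That sum was led by Nr5a2, Kitl and Cyp19a1, and the other 9 had means of at most 2.18 FPKM in D272Mut, 1.79 in GTMut and 2.06 in WT. Of the 12, 8 were tested by limma, and 3 were higher and 2 lower than WT in D272Mut, and 3 higher and 3 lower in GTMut. Nr5a2, Kitl and Inhba were higher in both mutants, and Cyp19a1 and Fshr lower in both. Inhba reached 1 FPKM, the level needed to be tested, only in mutant libraries, and Fshr only in WT libraries. The calls of Inhba and Fshr, and the counts that hold them, are therefore not independent of that filter. Of all genes tested, 36.3% were called higher and 39.5% lower in D272Mut, and 38.3% higher and 39.2% lower in GTMut. Fshr was listed at 0 in 2 libraries, Foxl2 in 3 and Amhr2 in 5. The 12 markers of other ovarian cells summed to 13.4 to 16.2 FPKM in D272Mut, 13.1 to 14.3 in GTMut and 22.2 to 24.8 in WT, led by Pecam1 and Dcn. The theca gene Cyp17a1 was listed at 0 in 11 libraries. The part of these markers in the results that follow was not tested.

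Among the tested F-box genes falls outnumbered rises in both mutants against WT, and a family of neighbouring Fbxw genes made up 12 of the falls in D272Mut and 13 in GTMut. In D272Mut, 22 members were higher and 31 lower than in WT, by limma with Benjamini-Hochberg adjustment over 12980 genes at a threshold of 0.05. Of all genes tested, 36.3% were called higher and 39.5% lower in that comparison. In GTMut, 24 members were higher and 32 lower than in WT, where 38.3% of all genes were called higher and 39.2% lower. As shares of the 64 tested members these were 34.4% and 48.4% in D272Mut and 37.5% and 50% in GTMut, and of all genes 75.7% in D272Mut and 77.5% in GTMut were called one way or the other. The median log2 fold change of the 64 members was -0.17 in D272Mut and -0.20 in GTMut, beside -0.05 in D272Mut and -0.02 in GTMut for all genes tested. The comparisons with WT share the same WT libraries. Side by side, 19 members were higher and 31 lower in both mutants, 6 passed in neither, 2 were higher in D272Mut and did not pass in GTMut, 5 were higher in GTMut and did not pass in D272Mut, and Fbxw22 was higher in D272Mut and lower in GTMut. Without the clustered Fbxw genes, the 51 remaining tested members split into 21 higher and 19 lower in D272Mut and into 24 higher and 19 lower in GTMut, with a median of 0.03 in D272Mut and 0.16 in GTMut. Rises of at least 2-fold were called for 12 of them in each mutant, against 17.9% of all genes in D272Mut and 19.3% in GTMut. Quantile normalization, which shifted the median of all genes to -0.25 in D272Mut and -0.23 in GTMut, gave 20 members higher and 36 lower in D272Mut and 17 higher and 33 lower in GTMut. Under it the share of higher calls among all called genes moved to 37.4% in D272Mut and 39.2% in GTMut, against 47.9% in D272Mut and 49.4% in GTMut on the values as deposited. In bulk RNA, and with values scaled to each library, less RNA of a gene per oocyte cannot be told apart from fewer oocytes that hold it.

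**Figure D1:**
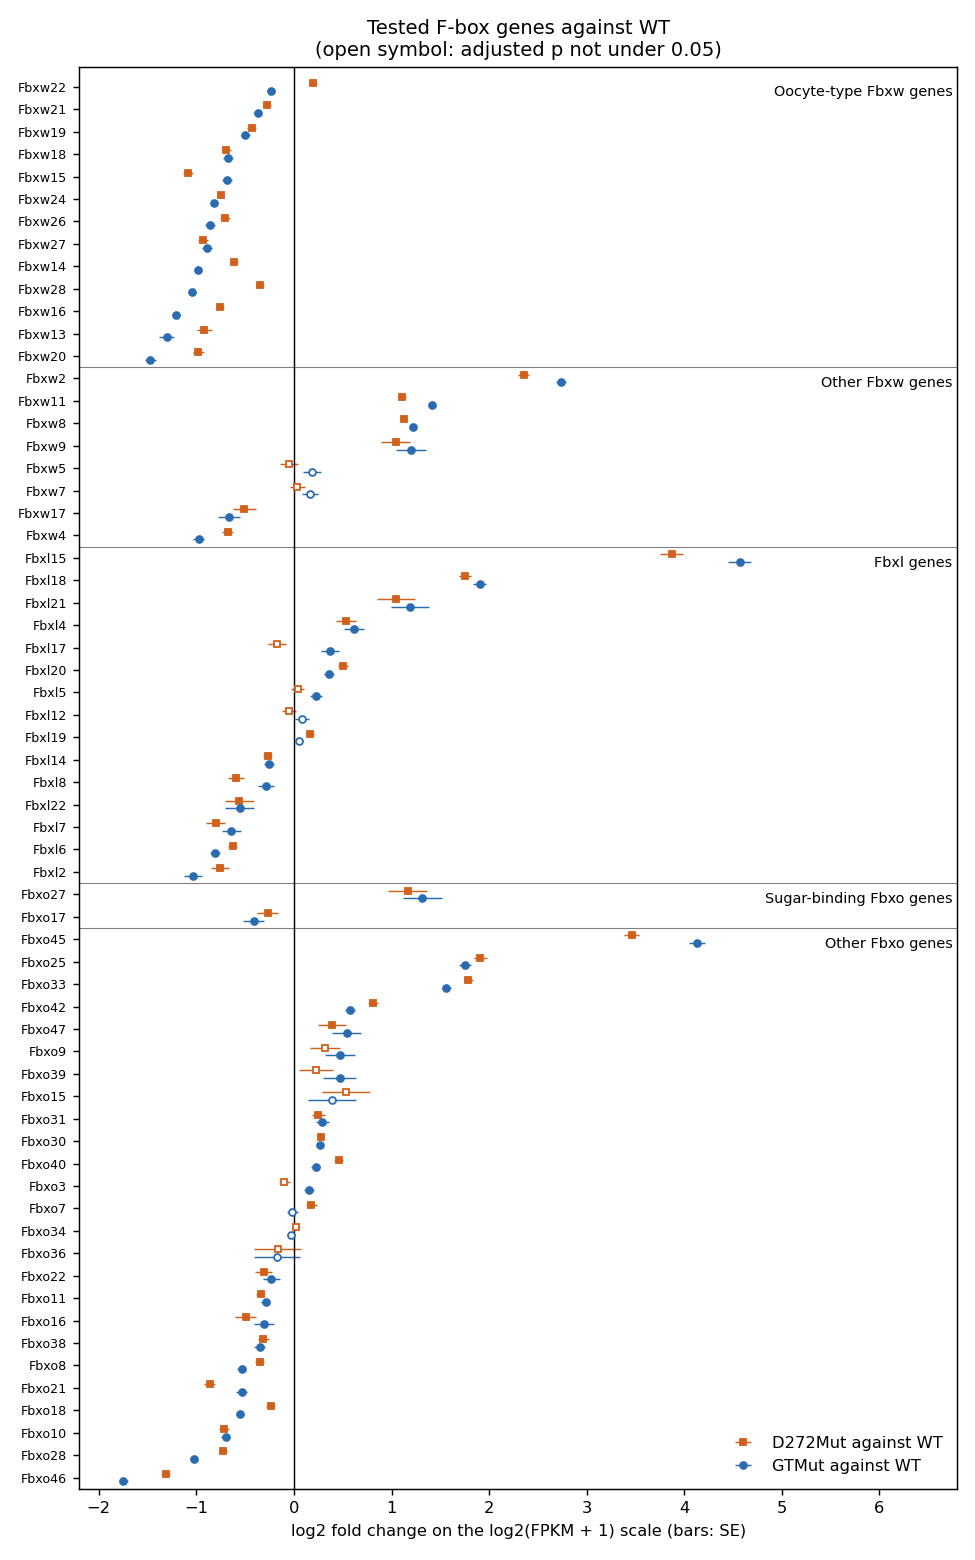
Log2 fold change on the log2(FPKM + 1) scale (horizontal axis) of 63 of the 64 tested F-box genes, by class (the clustered genes are labelled oocyte-type) and ordered within a class by the GTMut value. Squares are D272Mut against WT, circles GTMut against WT, bars the standard error of the limma fit, and open symbols did not pass the adjusted p threshold of 0.05. All 13 clustered Fbxw genes lie left of 0 in GTMut and 12 of them in D272Mut, whereas the other classes spread to both sides, out to 4.57 for Fbxl15.

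The neighbouring Fbxw genes are 13 genes in 1 tract of chromosome 9. They span 651 kb (mm10, chr9:109139447-109790670), all on the minus strand, in the order Fbxw21, Fbxw13, Fbxw20, Fbxw14, Fbxw28, Fbxw22, Fbxw16, Fbxw19, Fbxw15, Fbxw24, Fbxw18, Fbxw26 and Fbxw27 by rising coordinate. The annotation places Fbxw25 there too, which was not analysed here. None of the 11 other genes annotated inside the tract was among those tested. The proteins are little studied and no substrate is named here. Their coding sequences, 1395 to 1410 bases long, were 79.5% to 99.1% identical in 78 pairwise comparisons, with a median of 84%. Fbxw14 and Fbxw28 were the closest pair at 99.1%, and they shared 30.2% and 36.0% of their 150-base transcript windows with each other exactly. Reads from those 2 genes could have been split between them, so their values are uncertain singly. The other 11 shared no whole window with another of the 13 genes. Only exact matches were counted, so that count cannot show whether reads of these 11 were placed correctly. Fbxw25 and the other genes annotated in the tract were not part of that comparison.

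The upstream DNA of these genes is shown because 12 of the 13 were lower than WT in D272Mut and all 13 in GTMut. RefSeq (GRCm38.p6) gave a promoter for 10 of the 13. The 250 bases before the start were aligned in 45 pairs, and 84.7% to 97.3% of the aligned bases were identical, with a median of 91%. At least 205 bases aligned in each pair, and gaps were not counted. The 46 other F-box genes with a promoter, counted the same way, had a median identity of 58.7% in 1035 pairs, and at most 71.3%. The last 100 bases before the annotated start of 6 of them are given here 5′ to 3′ on the minus strand, with the letters TTTAAA in capitals. They were picked from along the tract, with the near-identical pair and with Fbxw20, the 1 gene of the 10 without those letters.
Fbxw21 (chr9:109162023-109162122): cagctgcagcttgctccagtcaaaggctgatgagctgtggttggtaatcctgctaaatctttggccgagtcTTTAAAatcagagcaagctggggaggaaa
Fbxw20 (chr9:109234755-109234854): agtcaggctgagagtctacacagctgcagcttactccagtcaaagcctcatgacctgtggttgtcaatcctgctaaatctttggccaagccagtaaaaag
Fbxw14 (chr9:109287677-109287776): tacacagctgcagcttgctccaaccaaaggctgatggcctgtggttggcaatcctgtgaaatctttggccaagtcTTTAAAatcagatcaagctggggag
Fbxw28 (chr9:109339660-109339759): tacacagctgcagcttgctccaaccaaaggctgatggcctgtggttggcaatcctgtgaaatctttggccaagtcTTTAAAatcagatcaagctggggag
Fbxw16 (chr9:109449141-109449240): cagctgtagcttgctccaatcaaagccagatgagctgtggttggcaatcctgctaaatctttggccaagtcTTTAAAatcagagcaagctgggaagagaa
Fbxw24 (chr9:109626060-109626159): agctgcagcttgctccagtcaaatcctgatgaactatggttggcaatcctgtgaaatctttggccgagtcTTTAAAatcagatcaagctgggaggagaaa
The Fbxw14 and Fbxw28 stretches are the same letter for letter. TTTAAA, read off the alignment of these sequences and then searched for, began 10 to 54 bases before the start in 9 of the 10, and it reads the same on both strands. It occurred within 250 bases of the start in 12.1% of 32851 promoters of all genes and in 7 of the 46 other F-box promoters. The letters TATAAA, searched on both strands, occurred in none of the 10, in none of the 46 other F-box promoters and in 12.4% of all promoters. CAGCTG, which also reads the same on both strands, occurred in all 10 within 250 bases, in 9 of the 46 other F-box promoters and in 13% of all promoters. These matches describe the letters in the window and say nothing of what binds there. As the 10 stretches of the tract are so alike, their matches are not 10 separate observations.

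In WT oocytes the clustered genes were among the most abundant F-box transcripts. FPKM is scaled per length, so levels can be set between genes. By its mean Fbxw24 came first of all members with 591 ± 18.4 FPKM and stood at rank 87 of all genes, followed by Fbxw28 with 560 ± 22.1 and Fbxw14 with 482 ± 23.4 (SD, n = 4). Fbxo34 came 4th by its mean with 446 ± 12.6 FPKM and is the 1 gene outside the tract among the 10 highest. Fbxw15, Fbxw19, Fbxw21 and Fbxw18 followed between 283 and 352 FPKM. Library values overlapped between Fbxw24 and Fbxw28, between Fbxw14 and Fbxo34, between Fbxw15 and Fbxw19, between Fbxw19 and Fbxw21, and between Fbxw21 and Fbxw18, so the order within these pairs is not fixed by these data. The order of Fbxw28 and Fbxw14 is uncertain as well, because reads could have been split between them. Of the 14 members at 100 FPKM or more in WT, 11 belonged to the tract. Summed over its 13 genes, the tract held 2348 to 2407 FPKM in D272Mut, 1975 to 2162 in GTMut and 3477 to 3758 in WT, without overlap between any pair of genotypes. That was 52.5% to 53.7% of the summed F-box FPKM in D272Mut, 48.7% to 51.2% in GTMut and 65.4% to 67.7% in WT. The other 63 members summed to 2093 ± 31.8 FPKM in D272Mut, 2080 ± 22.4 in GTMut and 1820 ± 31.9 in WT.

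Against WT, 12 of the 13 clustered genes were lower and 1 higher in D272Mut, and all 13 were lower in GTMut. The median log2 fold change was -0.71 in D272Mut and -0.86 in GTMut. The library values did not overlap for any of the 13 in either comparison, against 69.1% of all genes in D272Mut and 72.9% in GTMut. The counts of higher and lower calls were the same under all 20 alternative settings of each comparison. Falls of at least 2-fold were found for 1 of the 13 in D272Mut, against 5.9% of all genes, and for 4 in GTMut, against 9.61%.

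Fbxw20 had the largest fall of the tract in GTMut. It read 60.4, 63.2, 59.3 and 68.5 FPKM in the D272Mut libraries, 43.7, 40.4, 48.4 and 45.1 in GTMut, and 124, 126, 128 and 121 in WT. The 3 genotypes formed separate groups, with GTMut lowest. The log2 fold change against WT was -0.98 ± 0.06 (SE) in D272Mut and -1.47 ± 0.06 in GTMut, with a limma adjusted p of 1.3e-09 in D272Mut and 1.2e-11 in GTMut. Fbxw13, the least abundant gene of the tract, kept the same order with 29.6, 25.2, 23 and 23.3 FPKM in D272Mut, 18.6, 19.2, 20.4 and 17.9 in GTMut, and 46.7, 53.6, 46.2 and 47.7 in WT. Every D272Mut library lay above every GTMut library and below every WT library, and the log2 fold change was -0.92 ± 0.08 in D272Mut and -1.30 ± 0.08 in GTMut. Fbxw16 read 115, 108, 104 and 112 FPKM in D272Mut, 82.7, 78.9, 77.5 and 80.7 in GTMut, and 182, 184, 189 and 189 in WT. It again formed 3 separate groups, at 59.1% of the WT mean in D272Mut and 43.0% in GTMut.

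Fbxw28 and Fbxw14, whose reads could have been split between them, both fell in each mutant. Fbxw28 read 431, 449, 438 and 441 FPKM in D272Mut, 284, 271.9, 253 and 274 in GTMut, and 549, 573, 582 and 534 in WT. Fbxw14 read 322, 307, 307 and 324 FPKM in D272Mut, 259, 232, 236 and 245 in GTMut, and 479, 489, 508 and 452 in WT. Both formed 3 separate groups with GTMut lowest. Fbxw28 changed by -0.35 ± 0.04 in D272Mut and -1.04 ± 0.04 in GTMut on the log2 scale, and Fbxw14 by -0.61 ± 0.04 in D272Mut and -0.98 ± 0.04 in GTMut.

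Fbxw24, with the highest mean of the members in WT, read 344, 353, 343 and 364 FPKM in D272Mut, 348, 334, 315 and 343 in GTMut, and 589, 574, 617 and 584 in WT. The mutants overlapped each other and both lay below WT, with log2 fold changes of -0.75 ± 0.04 in D272Mut and -0.82 ± 0.04 in GTMut. Fbxw18, Fbxw19, Fbxw21, Fbxw26 and Fbxw27 shared this pattern of overlapping mutants below WT. Their log2 fold changes ran from -0.93 for Fbxw27 to -0.27 for Fbxw21 in D272Mut, and from -0.89 for Fbxw27 to -0.37 for Fbxw21 in GTMut. Of these 6 genes, Fbxw26 was the 1 whose difference between the mutants passed by limma, at 0.15 ± 0.05 and an adjusted p of 0.035. That call was lost in 7 of the 20 alternative settings.

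Fbxw15 and Fbxw22 departed from the others. Fbxw15 read 158, 164, 171 and 166 FPKM in D272Mut, 234, 228, 204 and 208 in GTMut, and 361, 321, 375 and 349 in WT. Here D272Mut was the lowest group and none overlapped: the log2 fold change was -1.09 ± 0.05 in D272Mut, the largest fall of the tract in that mutant, and -0.68 ± 0.05 in GTMut. Fbxw22 read 111, 106, 105 and 106 FPKM in D272Mut, 81.1, 75.3, 77.5 and 83.0 in GTMut, and 96.4, 93.4, 96.2 and 88.4 in WT. The D272Mut libraries lay above WT and the GTMut libraries below it, with a log2 fold change of 0.19 ± 0.04 in D272Mut (limma adjusted p = 0.00064) and -0.24 ± 0.04 in GTMut (limma adjusted p = 0.00011).

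**Figure D2:**
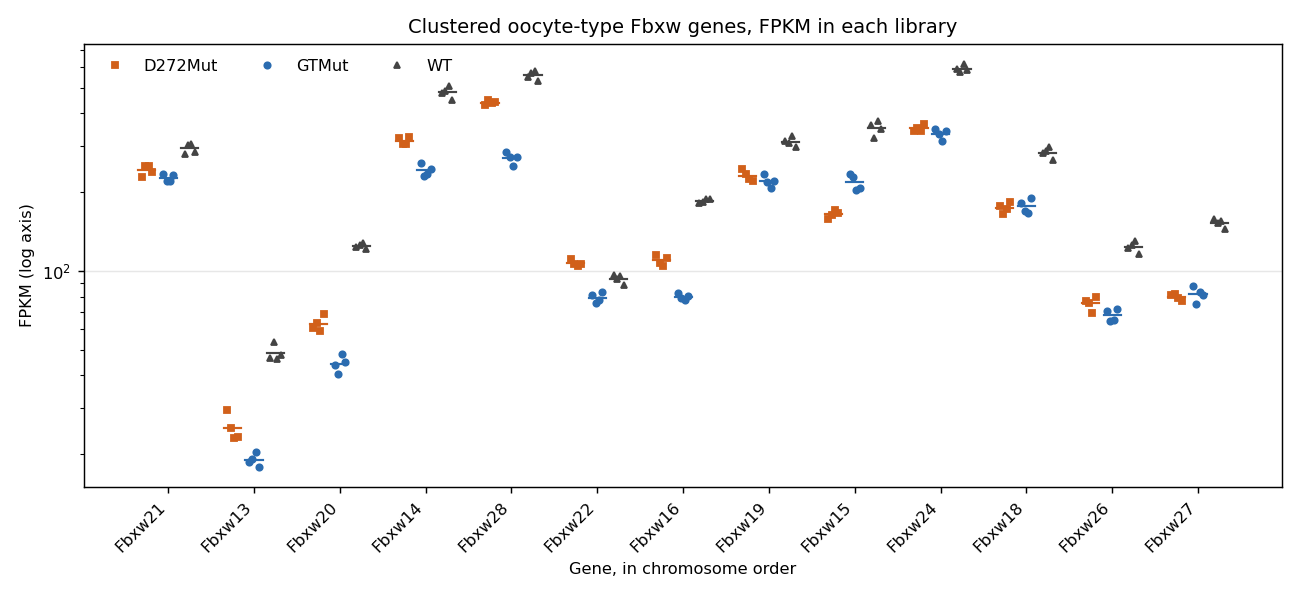
FPKM on a log axis in each library for the 13 clustered Fbxw genes, in chromosome order. Squares are D272Mut, circles GTMut and triangles WT, with 4 libraries each, and the line is the mean. WT lies above both mutants for every gene except Fbxw22, where D272Mut at 105 to 111 FPKM lies above WT at 88.4 to 96.4.

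Set directly against each other, the mutants differed at 8 of the 13 clustered genes. By limma, 7 were higher in D272Mut than in GTMut and 1 lower, where 19.3% of all genes were called higher and 20.2% lower. The median log2 difference over the tract was 0.15, beside -0.01 for all genes tested. Fbxw28 differed most, by 0.70 ± 0.04 (adjusted p = 2e-08), so that its mean in D272Mut was 1.62 times that in GTMut. Reads could have been split between Fbxw28 and Fbxw14, so the single values of both are uncertain. Fbxw20 followed at 0.49 ± 0.06, Fbxw16 at 0.45 ± 0.04, Fbxw22 at 0.43 ± 0.04, Fbxw13 at 0.39 ± 0.08 and Fbxw14 at 0.37 ± 0.04. Those 6 genes lie in the part of the tract between Fbxw13 and Fbxw16, and they are all the genes of the table in that stretch. Fbxw15 was lower in D272Mut by -0.40 ± 0.05 (limma adjusted p = 6.1e-05). The remaining genes had values between -0.04 for Fbxw27 and 0.15 for Fbxw26. No test of position along the tract was made.

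**Figure D3:**
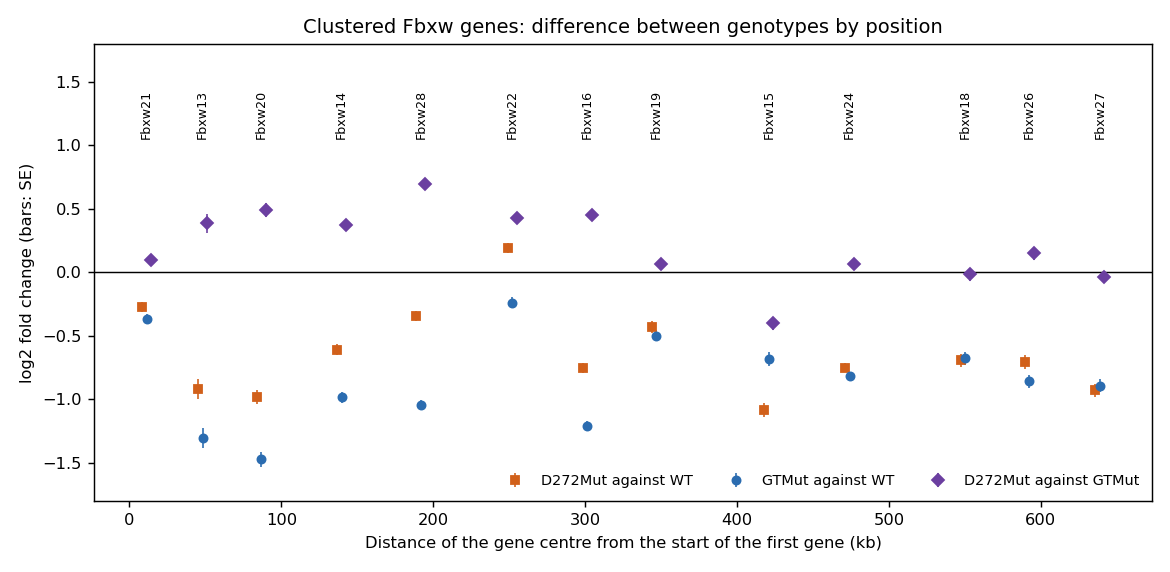
Log2 fold change on the log2(FPKM + 1) scale against the distance of the gene centre from the start of Fbxw21 in kb, for the 13 clustered Fbxw genes. Squares are D272Mut against WT, circles GTMut against WT and diamonds D272Mut against GTMut, with standard errors from limma. The 6 neighbours from Fbxw13 to Fbxw16 hold the differences between the mutants of 0.37 to 0.70, and Fbxw15 has the 1 clear negative one at -0.40. The single values of Fbxw14 and Fbxw28 are uncertain, as reads could have been split between them.

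The Fbxw genes outside the tract moved to both sides. Of 8 tested, 4 were higher and 2 lower in each mutant against WT, with a median log2 fold change of 0.54 in D272Mut and 0.69 in GTMut. Fbxw2 had the largest rise, at 30.3, 30.4, 29.9 and 30.4 FPKM in D272Mut, 36.9, 40.9, 42.3 and 39.1 in GTMut, and 4.78, 5.14, 5.68 and 4.88 in WT. Both mutants lay far above WT, GTMut highest and without overlap, with log2 fold changes of 2.35 ± 0.06 in D272Mut and 2.74 ± 0.06 in GTMut. Fbxw11, a beta-TrCP protein that recognises phosphorylated targets such as beta-catenin, averaged 53.1 ± 2.5 FPKM in D272Mut, 66.2 ± 1.6 in GTMut and 24.2 ± 0.76 in WT (SD, n = 4). It rose by 1.10 ± 0.04 in D272Mut and 1.42 ± 0.04 in GTMut on the log2 scale. Fbxw8, which works with the cullin CUL7, averaged 76.7 ± 2.1 FPKM in D272Mut, 81.6 ± 1.7 in GTMut and 34.6 ± 0.37 in WT. Its log2 fold change was 1.13 ± 0.03 in D272Mut and 1.22 ± 0.03 in GTMut. Fbxw9 rose by 1.04 ± 0.15 in D272Mut and 1.2 ± 0.15 in GTMut. Fbxw4, known as dactylin and linked to limb development, read 32.0, 32.3, 32.2 and 31.8 FPKM in D272Mut, 23.3, 25.5, 27.3 and 28.0 in GTMut, and 56.4, 50.8, 51.2 and 49.8 in WT. It formed 3 separate groups, with log2 fold changes of -0.68 ± 0.06 in D272Mut and -0.97 ± 0.06 in GTMut.

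Among the Fbxl genes, 7 were higher and 6 lower in D272Mut than in WT, and 8 were higher and 6 lower in GTMut, of 16 tested. Their median log2 fold change was -0.004 in D272Mut and 0.16 in GTMut. As shares of the 16, the calls were 43.8% and 37.5% in D272Mut and 50% and 37.5% in GTMut. Of all genes tested, 36.3% were called higher and 39.5% lower in D272Mut, and 38.3% higher and 39.2% lower in GTMut. Fbxl15, described as a regulator of BMP signalling through the ligase SMURF1, had the largest rise of all members. It read 28.7, 25.6, 28.5 and 30.7 FPKM in D272Mut, 43.6, 44.2, 47.1 and 51.4 in GTMut, and 0.489, 1.19, 1.17 and 1.26 in WT. WT was close to the lower end of what was tested, and no libraries overlapped between genotypes. The log2 fold change was 3.87 ± 0.12 in D272Mut and 4.57 ± 0.12 in GTMut, and the limma adjusted p was 1.3e-12 in D272Mut and 1.8e-13 in GTMut. Exons of Fbxl15 overlap those of Cuedc2 on the opposite strand, and counting by strand is not stated, so reads of that overlap could belong to either gene. Fbxl18 averaged 27.8 ± 1.6 FPKM in D272Mut, 30.9 ± 2.0 in GTMut and 7.54 ± 0.57 in WT, a rise of 1.75 ± 0.06 in D272Mut and 1.90 ± 0.06 in GTMut on the log2 scale. Fbxl21 was higher in both mutants and low everywhere, at 2.67 ± 0.63 FPKM in D272Mut, 3.02 ± 0.43 in GTMut and 0.816 ± 0.52 in WT.

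The Fbxl genes that fell did so by less than those that rose most. Fbxl2, a prenylated and membrane-bound F-box protein, read 7.12, 6.47, 5.67 and 6.76 FPKM in D272Mut, 5.98, 4.56, 4.95 and 5.37 in GTMut, and 13.1, 12.1, 10.5 and 11.1 in WT. The mutants overlapped each other and lay below WT, at log2 fold changes of -0.76 ± 0.09 in D272Mut and -1.03 ± 0.09 in GTMut. Between the mutants Fbxl2 was called higher in D272Mut, by 0.27 ± 0.09 (limma adjusted p = 0.031). Its exons overlap Ubp1 on the opposite strand. Fbxl6 fell by 0.63 on the log2 scale in D272Mut and by 0.81 in GTMut, and Fbxl7, which targets Aurora A, by 0.80 in D272Mut and 0.64 in GTMut. Fbxl14, which targets Snail-family factors, fell by 0.27 in D272Mut and 0.26 in GTMut, against a WT level of 109.5 ± 2.2 FPKM. Fbxl8 fell by 0.59 in D272Mut and by 0.28 in GTMut, where 1 GTMut library lay inside the WT range.

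Of the 25 tested Fbxo genes outside the sugar-binding group, 9 were higher and 10 lower in D272Mut than in WT. In GTMut 11 were higher and 10 lower, and the medians were 0.02 in D272Mut and -0.02 in GTMut. As shares the calls were 36% and 40% in D272Mut and 44% and 40% in GTMut. Of all genes tested, 36.3% were called higher and 39.5% lower in D272Mut, and 38.3% higher and 39.2% lower in GTMut. Fbxo45, which works with the large ligase MYCBP2 in neurons, had the second largest rise of all members on the log2(FPKM + 1) scale. It read 61.1, 72.8, 64.4 and 53.6 FPKM in D272Mut, 101, 103, 97.0 and 99.9 in GTMut, and 4.96, 4.53, 4.37 and 5.29 in WT. Every GTMut library lay above every D272Mut library, and WT lay far below both. The ratio of means to WT was 13.2 in D272Mut and 21 in GTMut. The log2 fold change was 3.46 ± 0.08 in D272Mut (limma adjusted p = 6.2e-14) and 4.13 ± 0.08 in GTMut (limma adjusted p = 9.1e-15). Fbxo33, described as a ligase subunit for YB-1, an RNA-binding protein, read 218, 202, 221 and 227 FPKM in D272Mut, 191, 193, 182 and 177 in GTMut, and 64.4, 57.7, 64.5 and 62.2 in WT. D272Mut was the highest group here and none overlapped, with log2 fold changes of 1.79 ± 0.05 in D272Mut and 1.56 ± 0.05 in GTMut. Fbxo25 averaged 30.7 ± 2.4 FPKM in D272Mut, 27.4 ± 1.5 in GTMut and 7.42 ± 0.45 in WT, and the mutants did not differ past the threshold (0.16 ± 0.07). Fbxo42, a kelch-repeat protein known to target p53, rose by 0.81 ± 0.05 in D272Mut and 0.58 ± 0.05 in GTMut, and Fbxo40, known from muscle, by 0.46 ± 0.05 in D272Mut and 0.22 ± 0.05 in GTMut.

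The largest fall of any member was that of Fbxo46. It read 25.2, 24.4, 23.5 and 23.9 FPKM in D272Mut, 16.9, 19.1, 17.3 and 17.5 in GTMut, and 63.9, 60.8, 60.0 and 62.7 in WT. The genotypes formed 3 tight groups, at 39.2% of the WT mean in D272Mut and 28.6% in GTMut, and the log2 fold change was -1.31 ± 0.05 in D272Mut and -1.75 ± 0.05 in GTMut. Exons of Fbxo46 overlap Qpctl on the opposite strand. Fbxo28, known to act with MYC, read 79.0, 83.6, 83.0 and 78.0 FPKM in D272Mut, 67.6, 63.0, 63.5 and 69.5 in GTMut, and 138, 129, 134 and 139 in WT. It too formed 3 groups, with log2 fold changes of -0.73 ± 0.04 in D272Mut and -1.02 ± 0.04 in GTMut. Fbxo10, which targets BCL2, fell by 0.72 in D272Mut and 0.70 in GTMut. Fbxo21 averaged 21.6 ± 1.8 FPKM in D272Mut, 27.3 ± 0.29 in GTMut and 40.1 ± 1.8 in WT, a fall that was larger in D272Mut. Fbxo18, the DNA helicase FBH1, fell by 0.24 in D272Mut and 0.55 in GTMut, Fbxo8 by 0.35 in D272Mut and 0.53 in GTMut, and Fbxo38 by 0.31 in D272Mut and 0.35 in GTMut.

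**Figure D4:**
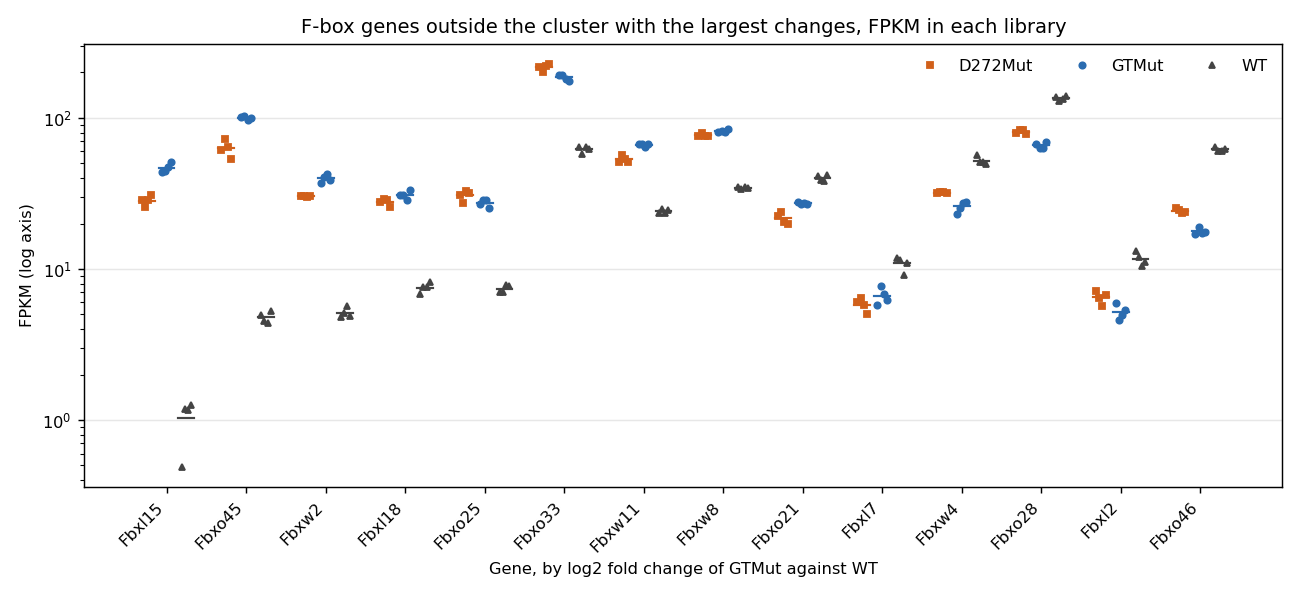
FPKM on a log axis in each library for 14 F-box genes outside the tract with the largest changes, ordered by the log2 fold change of GTMut against WT. Squares are D272Mut, circles GTMut and triangles WT, with 4 libraries each, and the line is the mean. The 4 WT libraries lie below all mutant libraries for the 8 genes on the left and above them for the 6 on the right, and Fbxl15 in WT reaches down to 0.489 FPKM.

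The sugar-binding Fbxo proteins recognise glycoproteins for destruction, and 3 of their 5 genes, Fbxo2, Fbxo6 and Fbxo44, stayed under 1 FPKM in every library. Fbxo27 read 1.61, 0.832, 1.87 and 1.42 FPKM in D272Mut, 1.07, 2.34, 2.57 and 1.04 in GTMut, and 0, 0, 0.206 and 0.0911 in WT. It reached 1 FPKM, the level needed to be tested, only in mutant libraries, so its call as higher in both mutants is not independent of that filter. Fbxo17 was lower in both, at 7.41 ± 0.98 FPKM in D272Mut, 6.58 ± 0.25 in GTMut and 9.17 ± 1.5 in WT, with D272Mut overlapping WT. Its limma call in D272Mut, at an adjusted p of 0.037, was lost in 9 of the 20 alternative settings.

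Members with known roles in cell division were called in both directions, at shares near those of all genes. The group was Fbxw5, Fbxw7, Fbxw11, Fbxl7, Fbxl12, Fbxo11, Fbxo28, Fbxo30, Fbxo31 and Fbxo4, the last of which was not tested. Of 9 tested, 3 were higher and 3 lower than WT in each mutant, or 33.3% each way. The largest changes of the group were given above. They were those of Fbxw11 (1.10 in D272Mut, 1.42 in GTMut), Fbxo28 (-0.73 in D272Mut, -1.02 in GTMut) and Fbxl7 (-0.80 in D272Mut, -0.64 in GTMut). Of all genes tested, 36.3% were called higher and 39.5% lower in D272Mut, and 38.3% higher and 39.2% lower in GTMut. The median of the 9 was -0.05 in D272Mut and 0.16 in GTMut. Fbxo30, which mouse oocytes use in chromosome segregation, averaged 107 ± 2.2 FPKM in D272Mut, 107 ± 2.6 in GTMut and 88.4 ± 2.2 in WT. It rose by 0.27 ± 0.03 in each mutant without overlap. Fbxo31, which targets cyclin D1, rose by 0.25 ± 0.07 in D272Mut and 0.29 ± 0.07 in GTMut, but quantile normalization turned the D272Mut value to -0.01 and left 0.02, with no call, in GTMut. Fbxo11, which targets BCL6, fell by 0.34 in D272Mut and 0.29 in GTMut, and it shares exon sequence with Msh6 on the opposite strand. Fbxw7, the subunit for cyclin E, MYC and Notch, did not pass against WT: it averaged 6.96 ± 0.50 FPKM in D272Mut, 7.71 ± 0.54 in GTMut and 6.78 ± 0.60 in WT. Under quantile normalization it was called lower in D272Mut, at -0.28 (limma adjusted p = 0.0041). Median-ratio scaling called it higher in GTMut, at 0.20 (limma adjusted p = 0.029), as did leaving out GTMut replicate 2 or WT replicate 4. Fbxw5 averaged 9.51 ± 0.84 FPKM in D272Mut, 11.4 ± 1.3 in GTMut and 9.91 ± 1.1 in WT, and did not pass against WT. Median-ratio scaling called Fbxw5 higher in GTMut, at 0.22 (limma adjusted p = 0.035), as did leaving out GTMut replicate 1 or WT replicate 1. Quantile normalization called it lower in D272Mut, at -0.33 (limma adjusted p = 0.0041). Fbxl12 averaged 30.0 ± 2.9 FPKM in D272Mut, 32.9 ± 2.0 in GTMut and 30.9 ± 2.3 in WT. Fbxl12 shares exon sequence with Ubl5.

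Fbxo34, reported to act in meiotic resumption of mouse oocytes, was the most abundant member that passed in no comparison. It read 426, 467, 473 and 447 FPKM in D272Mut, 431, 447, 434 and 434 in GTMut, and 464, 439, 437 and 444 in WT. The 3 groups overlapped, and the log2 fold change was 0.02 ± 0.04 in D272Mut and -0.03 ± 0.04 in GTMut. Its mean exceeded that of every other member in D272Mut and in GTMut, and its D272Mut libraries overlapped those of Fbxw28. Under quantile normalization it was called higher in both mutants, at 0.23 in D272Mut (limma adjusted p = 3.5e-05) and 0.19 in GTMut (limma adjusted p = 0.00025).

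Between the mutants, 20 of the 64 members were higher in D272Mut than in GTMut and 12 lower, against a background of 19.3% and 20.2% of all genes, and no member differed by 2-fold or more. Either way, 32 of 64 were called, against 39.6% of all genes. Libraries of the mutants did not overlap for 28 members, against 37.4% of all genes. Outside the tract, 13 members were higher in D272Mut and 11 lower. Some of these calls depended on the settings. That of Fbxw8 (-0.09, limma adjusted p = 0.047) was lost in 17 of the 20 alternatives. The call of Fbxl20 was lost in 10, and those of Fbxl2 and Fbxl19 in 5 each. Fbxo46 was higher by 0.43 ± 0.05, Fbxo18 by 0.31 ± 0.04, and Fbxo28 and Fbxw4 each by 0.29. Each of these 4 was lower than WT in both mutants. Fbxl15 was lower by -0.70 ± 0.12, Fbxo45 by -0.67 ± 0.08, Fbxw2 by -0.38 ± 0.06 and Fbxw11 by -0.31 ± 0.04. Each of these 4 was higher than WT in both mutants. Fbxl17, a quality control subunit for BTB proteins, read 2.10, 1.96, 2.11 and 2.31 FPKM in D272Mut, 3.21, 3.77, 3.94 and 3.28 in GTMut, and 2.57, 2.15, 2.72 and 2.64 in WT. It was higher than WT in GTMut (0.37 ± 0.09) and lower in D272Mut than in GTMut (-0.54 ± 0.09), and the D272Mut libraries overlapped WT. Quantile normalization left 0.01, with no call, in GTMut against WT, and called D272Mut lower than WT at -0.51. Fbxo3 had the same order, at 17.4 ± 1.1 FPKM in D272Mut, 20.9 ± 0.90 in GTMut and 18.7 ± 0.43 in WT, and under quantile normalization its GTMut value against WT turned to -0.08. Its GTMut call against WT was also lost without GTMut replicate 3, at 0.13 (limma adjusted p = 0.056). Fbxo21 and Fbxl8 were lower in D272Mut by -0.33 ± 0.05 and -0.31 ± 0.08. In contrast to the 4 risers named above, Fbxo33, Fbxo42 and Fbxo40 were higher in D272Mut than in GTMut by 0.22 to 0.23.

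The partners of F-box proteins can be set beside the shares of all genes, 36.3% higher and 39.5% lower in D272Mut and 38.3% higher and 39.2% lower in GTMut. Of 10 tested genes for the SCF core and other cullins, 3 were higher and 5 lower than WT in each mutant, with a median of -0.15 in D272Mut and -0.07 in GTMut. Skp1a, the adaptor that binds every F-box protein in the complex, averaged 1077 ± 39 FPKM in D272Mut, 1169 ± 20 in GTMut and 1259 ± 58 in WT. It fell by 0.22 on the log2 scale in D272Mut and by 0.11 in GTMut. Cul1, the SCF scaffold, averaged 96.2 ± 0.46 FPKM in D272Mut, 93.8 ± 1.5 in GTMut and 126 ± 3.9 in WT, a fall of 0.38 in D272Mut and 0.42 in GTMut. Rbx1, the gene of the SCF RING protein, averaged 17.1 ± 1.7 FPKM in D272Mut, 13.1 ± 1.9 in GTMut and 22.35 ± 2.0 in WT. It was lower in both mutants, at log2 fold changes of -0.37 in D272Mut and -0.74 in GTMut. Rnf7, a RING protein related to RBX1, averaged 96.2 ± 11 FPKM in D272Mut, 118 ± 2.0 in GTMut and 10.4 ± 0.52 in WT. It rose by 3.09 ± 0.07 in D272Mut and 3.39 ± 0.07 in GTMut on the log2 scale. Cul4a, the scaffold of another ligase family, rose by 1.45 ± 0.06 in D272Mut and 1.59 ± 0.06 in GTMut, and Cul4b fell by 0.49 in D272Mut and 0.59 in GTMut.

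Of 13 tested genes of neddylation and cullin exchange, which switch cullins on and let F-box proteins be swapped, 5 were higher and 7 lower in D272Mut and 5 were higher and 5 lower in GTMut, and the median was -0.37 in D272Mut and -0.05 in GTMut. Ube2m, the NEDD8-conjugating enzyme for CUL1, rose by 1.00 ± 0.05 in D272Mut and 1.16 ± 0.05 in GTMut. Dcun1d1, a NEDD8 ligase, fell by 1.01 in D272Mut and 1.16 in GTMut. Its relative Dcun1d2 rose by 1.14 in D272Mut and 1.03 in GTMut, and Dcun1d3 by 1.48 in D272Mut and 1.72 in GTMut. Of 9 COP9 signalosome genes, which remove NEDD8, 4 were higher and 4 lower in D272Mut and 3 were higher and 3 lower in GTMut, with medians of -0.08 in D272Mut and -0.12 in GTMut. Cops7a rose by 0.68 in D272Mut and 0.47 in GTMut, and Cops8 by 0.44 in D272Mut and 0.32 in GTMut. Cops4 fell by 0.76 in D272Mut and 0.65 in GTMut. Of 9 tested genes for ubiquitin E1 and SCF-linked E2 enzymes, 3 were higher and 5 lower in D272Mut and 3 were higher and 4 lower in GTMut, with medians of -0.08 in D272Mut and -0.13 in GTMut. Uba1, the main ubiquitin-activating enzyme, averaged 20.3 ± 1.1 FPKM in D272Mut, 17.6 ± 0.45 in GTMut and 49.9 ± 1.8 in WT. Ube2g1 fell by 0.73 in D272Mut and 0.87 in GTMut, while Ube2g2 rose by 0.58 in D272Mut and 0.65 in GTMut.

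Some F-box proteins carry other symbols. Of 6 such genes tested, 1 was higher and 4 lower than WT in each mutant, against 36.3% of all genes higher and 39.5% lower in D272Mut and 38.3% higher and 39.2% lower in GTMut, with a median of -0.25 in D272Mut and -0.32 in GTMut. Lmo7, which carries an F-box and LIM domains, averaged 25.9 ± 1.0 FPKM in D272Mut, 18.8 ± 0.60 in GTMut and 79.2 ± 1.4 in WT, a log2 fold change of -1.58 ± 0.04 in D272Mut and -2.02 ± 0.04 in GTMut. Kdm2b, a histone demethylase with an F-box, fell by 0.90 in D272Mut and 0.49 in GTMut, and its paralogue Kdm2a rose by 0.54 in D272Mut and 0.65 in GTMut. Btrc, the beta-TrCP gene paired with Fbxw11, fell by 0.29 in D272Mut and 0.38 in GTMut, the opposite direction to Fbxw11.

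The other tested members had smaller differences or low levels. Fbxl4, known from mitochondria, Fbxl20, known from synapses, and Fbxo47 were higher than WT in both mutants. Fbxl4 rose by 0.53 ± 0.10 in D272Mut and 0.62 ± 0.10 in GTMut, and Fbxl20 by 0.50 ± 0.05 in D272Mut and 0.36 ± 0.05 in GTMut. Fbxl22, Fbxo16, Fbxo22 and Fbxw17 were lower than WT in both, at means between 1.4 and 9.22 FPKM in the mutants. Exons of Fbxl22 overlap Herc1 and those of Fbxo22 overlap Nrg4, each on the opposite strand. Fbxl5, the iron-sensing subunit that targets IRP2, was higher than WT in GTMut at 44.1 ± 2.7 FPKM, against 37.5 ± 1.3 in WT, and averaged 38.7 ± 3.7 in D272Mut. Its difference between the mutants was -0.19 ± 0.07 (limma adjusted p = 0.035), a call that was lost in 9 of the 20 alternative settings. Fbxo9 also passed in GTMut and not in D272Mut, and the mutants did not differ past the threshold there. Fbxo39 was called higher in GTMut, but it reached 1 FPKM only in mutant libraries, so that call is not independent of the filter. Fbxl19, which binds CpG islands through a zinc finger, and Fbxo7, a gene of inherited parkinsonism in humans, were higher than WT in D272Mut. Quantile normalization ended the GTMut calls of Fbxl20, Fbxl5, Fbxo9, Fbxo39 and Fbxo47 and the D272Mut calls of Fbxo7 and Fbxo47. The D272Mut call of Fbxo47 and the GTMut call of Fbxo22 were each lost in 6 alternative settings, and the GTMut call of Fbxo16 without GTMut replicate 3. Fbxl19 averaged 85.3 ± 4.1 FPKM in D272Mut, 78.5 ± 2.0 in GTMut and 75.7 ± 0.65 in WT. Fbxo15, known from embryonic stem cells, and Fbxo36 passed in no comparison and varied widely between libraries, Fbxo15 between 1.17 and 4.24 FPKM in D272Mut.

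The 12 members that were not tested are Fbxl12os, which by its name is a transcript opposite Fbxl12, Fbxl13, Fbxl16, Fbxo2, Fbxo4, Fbxo6, Fbxo24, Fbxo32, Fbxo41, Fbxo44, Fbxo48 and Fbxw10. None was listed at 0 in all 12 libraries. Fbxo4 was listed at 0 in the 4 WT libraries, and Fbxo2 in the 4 WT and the 4 D272Mut libraries. An exact 0 can also be a failed estimate in such a table, so no fold is given for them. The highest value among the 12 was 0.891 FPKM for Fbxw10 in a GTMut library.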

How the data were processed

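The authors aligned paired reads of 150 bp to mm10 with TopHat2 2.0.13 and made the deposited FPKM values with Cufflinks 2.2.1, per the design text and the submitters' processing notes. The labels disagree in places, naming both a fragmentation and random priming kit and Smart-seq2 amplification, and lysed ovaries where the design text has collected oocytes. The authors' deposited table also gives cuffdiff output (log2 ratios, p-values, q-values), set beside the limma calls only. Its header is shifted by 1 column, so columns were read by position, and 1 line without content was left out. Strand-specific counting and any batch or date are not given in the sources used here.

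Values were analysed as log2(FPKM + 1) for the 12980 genes that reached 1 FPKM in a library, as the design text does. All 12 libraries were fitted together by genotype with limma 3.58.1 in R 4.3.3 (intensity trend, 9 residual degrees of freedom), two-sided, and p-values were adjusted by Benjamini-Hochberg over all 12980 genes. Fold changes on this scale understate the change of low genes. The fit was tested on simulated data. Alternatives were a pseudocount of 0.1, no filter, a maximum of at least 5 FPKM, median-ratio and quantile scaling, only the 2 genotypes compared, no trend, the replicate number as a block and leaving out each library.

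The members, classes, partner lists and marker lists were chosen with earlier results of these data known, so no pattern is given as independent support and lists are described by counts and medians. Members with values are the 10 largest rises and falls per comparison among called genes without overlapping libraries, all clustered Fbxw genes, the 10 highest in WT and the cell division group. Lists are given by up to 4 called genes, smallest p first, and markers by the 3 most abundant. A few further markers were named for their calls. Some genes outside this rule (Fbxl6, Fbxl14, Fbxl21, Fbxw9, Fbxo8, Fbxo10, Fbxo17, Fbxo38, Fbxo40, Fbxo42, Skp1a, Rbx1 and the smaller changes named near the end of the results) were chosen after their values were seen. Of the tested members, 1 is counted but its values are not reported here. Gene positions come from GENCODE M21, in which 75 of 76 members were matched by symbol, and identities from Biopython 1.88 alignments. Identities are shares of the aligned bases and leave out gaps.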

Additional observations from a re-analysis of the deposited data

Results flagged for a closer look

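Of 123 sets of 4 libraries checked over 41 named members, 5 had 1 library far from the other 3 by Dixon's criterion. Chance flags about 1 in 20 such sets, and 5 of 123 is 4.07%. Fbxl15 read 0.489402 FPKM in WT replicate 1, below the other WT libraries at 1.17 to 1.26. Fbxo11 read 57.5788 FPKM in WT replicate 4, where the others lay between 61.1 and 61.8. Fbxo18 read 31.0094 FPKM in D272Mut replicate 1, against 32.5 to 32.6 in the others. Fbxo30 read 102.708 FPKM in GTMut replicate 4, against 108 in each of the other 3. Fbxw8 read 79.9174 FPKM in D272Mut replicate 2, above 75.5 to 75.8 in the others. Each of these genes kept the direction of its difference from WT in both mutants when any single library was left out.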

How the results depend on the processing

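The counts of F-box members called higher or lower stayed within 1.5 times the reported count in all 20 alternatives of each comparison. Leaving out 1 library at a time gave 21 to 23 members higher and 30 to 31 lower in D272Mut against WT, 23 to 25 higher and 30 to 32 lower in GTMut against WT, and 16 to 20 higher and 10 to 12 lower in D272Mut against GTMut. Median-ratio scaling gave 24 higher and 30 lower in D272Mut against WT and 27 higher and 31 lower in GTMut against WT. Of the named members' fold changes, 2335 alternative values stayed on their side of the threshold, 32 lost the call and 23 gained one. Among the 2335, 13 values over 9 fold changes, called in neither fit, had the other sign. A further 4 changed direction with a call in 1 of the fits, all 4 under quantile normalization: Fbxo31 (-0.0107) and Fbxw7 (-0.28) in D272Mut against WT, and Fbxo3 (-0.0766) and Fbxo34 (0.19) in GTMut against WT. The cause was not tested beyond the shift of all genes that this scaling makes.

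Deviations of same-numbered libraries of different genotypes correlated at -0.357 to 0.094, with a median of 0.039. Those of differently numbered libraries correlated at -0.176 to 0.363, with a median of -0.001. No pairing by number was seen, but these values cannot show whether libraries shared a batch or a day. With the replicate number as a block, 22 members were higher and 31 lower in D272Mut against WT, 24 and 32 in GTMut against WT, and 18 and 10 in D272Mut against GTMut.

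The authors' deposited table, at a q under 0.05, called 23 members higher and 29 lower in D272Mut against WT, 24 and 30 in GTMut against WT, and 15 and 11 in D272Mut against GTMut. Of these, limma called 50 in the same direction in D272Mut against WT, 52 in GTMut against WT and 26 in D272Mut against GTMut. Without totals in the table, counting error at low FPKM cannot be given, and members under a few FPKM rest on few fragments.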
